A study of Mus musculus with 27 samples.

Results

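The step from D7 to D14 after cardiotoxin injury was described in the muscle of Gsdme KO mice, with the KO D14 libraries set against the KO D7 libraries. These 6 libraries, 3 for each day, were chosen from the 27 of the study by genotype and day, and no measured value entered the choice of libraries. Entries with at least 1 TPM in at least 3 of the 6 libraries were tested, which were 13309 of 55852 in the deposited table. TPM, a length-corrected unit of transcript abundance, gives each gene's share of the transcripts in a library.

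Cardiotoxin (CTX) is a toxin from snake venom. It destroys muscle fibres, and the muscle then regenerates. The study injected CTX into muscle of male mice, WT or KO for Gsdme, collected it on D1, D4, D7 and D14 with 3 libraries for each genotype and day, and added uninjured WT control muscle. Gsdme encodes gasdermin E, whose fragment, released by caspase cleavage, perforates the plasma membrane. Both groups described here carry the same global Gsdme deletion and the same CTX injection, and they differ in the day of collection. The sample titles say KO whereas the genotype field says knockdown, and the deposited description names the thigh for the injection and the gastrocnemius for collection. The question of the step was which transcripts changed between the building of new fibres and the end of the second week. As whole muscle was sequenced, fewer cells of a type and less RNA per cell cannot be told apart.

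Skeletal muscle regenerates from satellite cells, which divide, differentiate under the MyoD family of transcription factors and fuse into new fibres. New fibres at first use embryonic and neonatal contractile proteins and later replace them by adult fast or slow isoforms. Macrophages clear debris, and fibro-adipogenic progenitors lay down matrix and can also turn into adipocytes.

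TPM keeps no read number, so library depth is unknown. Replicate 2 of KO D7 stood apart from the other D7 libraries. Across genes on the log2(TPM + 1) scale it correlated with KO D7 replicates 1 and 3 at r of 0.960 and 0.962 and with KO D14 replicate 3 at 0.971, whereas KO D7 replicates 1 and 3 correlated at 0.982. The 50 most abundant genes held 55.0% of its TPM, against 46.7% and 49.3% in the other D7 libraries and from 55.7% to 57.6% on D14. Adult fast fibre contractile genes, which mark the labelled tissue, summed to 269059 TPM in this library and to between 162496 and 181061 TPM in the other 5. The number of calls, and the genes and lists whose call or count moved most, are therefore also given without it.

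Gsdme (ENSMUSG00000029821) was 1.37, 1.01 and 0.95 TPM in KO D7 replicates 1 to 3 and 1.96, 1.77 and 1.27 TPM in KO D14 replicates 1 to 3. The D14 values ranged higher, with overlap at 1 library a day. The difference did not pass the test (log2 0.33, SE 0.19, limma adjusted p = 0.298, exact two-sided permutation p = 0.2, where 0.1 is the smallest that 3 against 3 can give). WT muscle held between 1.80 and 2.51 TPM on D7 and between 1.46 and 2.26 TPM on D14, so that Gsdme TPM separated the genotypes on D7 and overlapped between them on D14. Which exons the deletion removes was not given in the sources used here.

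Between D7 and D14, 101 genes were called in KO muscle, that is, passed an adjusted p under 0.05 by limma with Benjamini-Hochberg adjustment over 13309 genes, which is 0.759% of those tested. Of these, 87 fell (0.654%) and 14 rose (0.105%), and in each of the 101 the 3 D14 libraries did not overlap the 3 D7 libraries. Such separation was common: among all genes tested, 26.9% had every D14 library below every D7 library and 6.05% had every D14 library above. The median difference of all genes was -0.20 on the log2 scale. Differences are D14 minus D7 of log2(TPM + 1) throughout, a scale that compresses changes at low TPM, and 40 of the called genes were under 10 TPM in both groups. Without KO D7 replicate 2 there were 419 calls (3.15% of genes), of which 391 were lower (2.94%) and 28 higher (0.21%), and these included 96 of the 101. In a fit of the 6 KO libraries alone, 652 genes were called (4.9%), of which 534 were lower (4.01%) and 118 higher (0.887%). Leaving out any other KO D7 or D14 library lowered the count. It was 12 without KO D7 replicate 3, 16 without KO D7 replicate 1, and 24, 27 and 41 when D14 replicates 1, 2 and 3 were left out in turn. Calls that held in all 6 of these fits numbered 10: Dlk1, Kcne1l, Exoc3l4, Krt8, Krt18, Actc1, Adamts17, Hcfc1r1, A930003A15Rik and a locus assembled from reads with no gene name, and all 10 fell. The balance of the calls moved with scaling, with 13.9% of them higher in TPM as deposited, 30.2% of 460 calls after median-of-ratios scaling and 40.1% of 766 calls after quantile normalization.

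**Figure D1:**
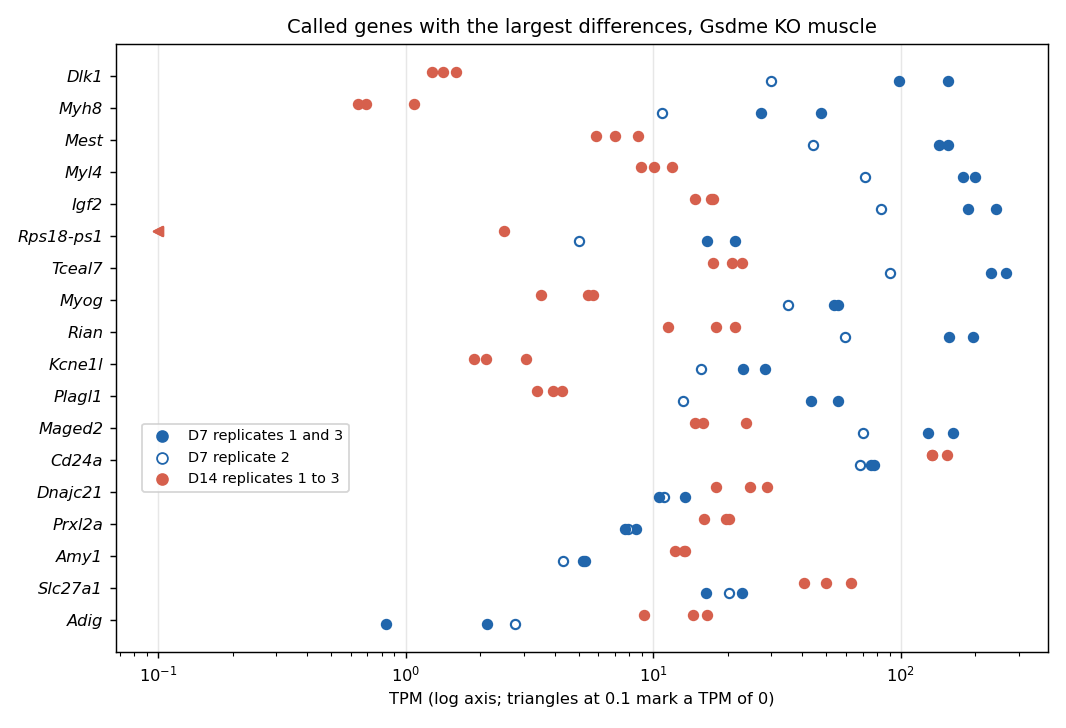
TPM of the called genes with the largest differences in the 3 KO D7 libraries (blue, replicate 2 open) and the 3 KO D14 libraries (red), on a log axis. In each gene the days do not overlap, and for most of the falling genes the open point lies nearest to D14, as for Dlk1 with 29.8 TPM.

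Of the genes with large falls, contractile isoforms of the immature fibre are described first. Myh8, the neonatal myosin heavy chain, was 47.7, 10.8 and 27.1 TPM on D7 and 0.64, 0.69 and 1.08 TPM on D14. Its lowest D7 library was replicate 2, still far above every D14 library. Myh8 fell by 3.82 on the log2 scale (SE 0.87, limma adjusted p = 0.0442) and by 4.37 without replicate 2 (adjusted p = 0.0267). Myl4, the embryonic and atrial alkali light chain, went from 199, 71.9 and 178 TPM to between 8.92 and 11.9 TPM and fell by 3.62 (SE 0.82, adjusted p = 0.0421). Actc1 (ENSMUSG00000068614), the cardiac actin that fetal and regenerating skeletal muscle also makes, was far more abundant, at 2669, 6597 and 3087 TPM on D7 and 462, 1078 and 819 TPM on D14. Here replicate 2 was the highest D7 library, and Actc1 fell by 2.35 with it (SE 0.37, adjusted p = 0.00522) and by 1.95 without it (adjusted p = 0.0146). Of the 10 embryonic and neonatal contractile genes tested, these 3 were called and all 3 fell, where 0.654% of all genes did. Without replicate 2, 5 of the 10 were called lower, against 2.94% of all genes. Their list had a median difference of -2.54, against -0.20 over all genes. In 8 of the 10, every D14 library was below every D7 library, where 26.9% of all genes had this.

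Myh3, the embryonic myosin heavy chain, was 106, 7.48 and 72.6 TPM on D7 and 1.88, 0.42 and 1.02 TPM on D14. The 3 D7 libraries lay above the D14 libraries, but replicate 2 was far below the other D7 libraries. Its difference of -4.33 (SE 1.07) did not pass the test (adjusted p = 0.061), and without replicate 2 it was -5.45 (adjusted p = 0.0196). Tnnt2, cardiac troponin T, had a difference of -2.73 (adjusted p = 0.13). Mybph, myosin binding protein H, was the most abundant of this list that was not called, at 207, 487 and 230 TPM on D7 and 22.8, 166 and 125 TPM on D14.

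Among myogenic regulators and satellite cell genes, 4 of 26 fell, where 0.654% of all genes did, and none rose. Myog (ENSMUSG00000026459), the MyoD family member that drives terminal differentiation, was 55.5, 35.0 and 53.9 TPM on D7 and 3.53, 5.47 and 5.71 TPM on D14. The days were well apart in every library, and Myog fell by 3.05 (SE 0.60, adjusted p = 0.0187) and by 3.26 without replicate 2 (adjusted p = 0.0219). Cdkn1c, the cell cycle inhibitor p57 that goes with withdrawal from division, was 150, 126 and 139 TPM on D7 and 25.9, 38.4 and 36.3 TPM on D14. It fell by 2.03 (SE 0.36, adjusted p = 0.0142), and replicate 2 lay close to the other D7 libraries. Igf2 and H19, also on this list, are described with the imprinted genes below. Both of them and Cdkn1c are imprinted and count in both lists, so that of the 4 only Myog counts here alone. Mymk, the fusion protein myomaker, was 15.6, 11.7 and 14.6 TPM on D7 and 0.57, 0.60 and 0.75 TPM on D14, which was a difference of -3.18 just outside the threshold (SE 0.78, adjusted p = 0.0588). The satellite cell factor Pax7 was between 1.86 and 2.20 TPM on D7 and between 0.77 and 1.21 TPM on D14 (log2 -0.57, adjusted p = 0.228). Myod1 differed by -0.94 (adjusted p = 0.243). The list median was -0.54. Every D14 library was below every D7 library in 16 of 26 genes (61.5%) and above in 2 (7.69%), against 26.9% and 6.05% of all genes.

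Adult contractile genes gave another picture. None of the 16 fast fibre genes was called, and their median was -0.13 in TPM as deposited and 0.10 after median-of-ratios scaling, so that its sign depended on the scaling. Myh4, the fast IIb myosin heavy chain, was 4568, 9085 and 4594 TPM on D7 and 4208, 5712 and 4864 TPM on D14 (log2 -0.24, adjusted p = 0.724). Mylpf, the fast regulatory light chain, was the most abundant member, with 32825, 51450 and 38353 TPM on D7 and 18457, 23096 and 22552 TPM on D14 (log2 -0.92, adjusted p = 0.13). The 10 slow fibre genes summed to between 2539 and 3525 TPM on D7 and to 7116, 2228 and 3066 TPM on D14, with KO D14 replicate 1 highest, and none was called.

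To show the regulatory sequence of 3 falling muscle genes, the 250 bases before the start site were read from the RefSeq promoter table (build GRCm38.p6). Capitals mark matches, on either strand, to the E-box CANNTG, which MyoD family proteins bind, to the MEF2 consensus and to the CArG box of serum response factor. They are Myog at chr1:134289754-134290003 on the plus strand, Myh8 at chr11:67276874-67277123 on the plus strand and Actc1 at chr2:114052876-114053125 on the minus strand.
Myog: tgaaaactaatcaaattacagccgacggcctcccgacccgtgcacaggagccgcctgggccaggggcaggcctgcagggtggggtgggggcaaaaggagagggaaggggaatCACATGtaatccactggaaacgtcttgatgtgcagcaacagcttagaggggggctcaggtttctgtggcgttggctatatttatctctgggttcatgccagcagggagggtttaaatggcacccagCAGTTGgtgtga
Myh8: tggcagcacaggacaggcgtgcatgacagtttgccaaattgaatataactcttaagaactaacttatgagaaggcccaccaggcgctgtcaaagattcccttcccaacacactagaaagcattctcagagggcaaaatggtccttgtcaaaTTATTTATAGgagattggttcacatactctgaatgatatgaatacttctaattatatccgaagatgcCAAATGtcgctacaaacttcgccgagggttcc
Actc1: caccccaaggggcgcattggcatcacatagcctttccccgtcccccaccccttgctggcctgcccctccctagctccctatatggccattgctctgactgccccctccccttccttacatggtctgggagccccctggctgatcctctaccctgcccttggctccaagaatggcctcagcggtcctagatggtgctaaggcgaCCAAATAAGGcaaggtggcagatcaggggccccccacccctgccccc
Myog held 2 E-boxes, the nearer starting 12 bases before the start site, which is position -12. Myh8 held 1 E-box from position -32 and 1 MEF2 match from position -99, and Actc1 held 1 CArG box from position -47. Of all 32851 promoter stretches of the same length, 66.2% held an E-box, 2.92% the MEF2 consensus and 1.47% a CArG box, and no matches overlapped in the 3 shown. A match describes these letters and not binding.

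A second group among the falling genes was imprinted, that is, expressed from 1 parental copy in many tissues and known for high levels in fetal and growing tissue. Dlk1 (ENSMUSG00000040856), a transmembrane protein of the Notch ligand type that is made in regenerating fibres and in preadipocytes, had the largest fall of all genes. It was 155, 29.8 and 98.2 TPM on D7 and 1.60, 1.41 and 1.28 TPM on D14. Each D7 library was far above each D14 library although the D7 libraries themselves differed widely, and Dlk1 fell by 5.01 (SE 0.72, adjusted p = 0.00317), with group means 66.0-fold apart. Without replicate 2 it fell by 5.68 (adjusted p = 0.0016). Mest, a hydrolase of the endoplasmic reticulum, went from 155, 44.3 and 143 TPM to 5.87, 7.03 and 8.70 TPM and fell by 3.63 (SE 0.78, adjusted p = 0.0324).

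Igf2, the growth factor IGF-II, was 241, 83.1 and 187 TPM on D7 and 14.7, 17.2 and 17.5 TPM on D14. It fell by 3.17 (SE 0.66, adjusted p = 0.0267) and by 3.62 without replicate 2 (adjusted p = 0.0196), and D14 was nearly even among libraries. H19, the noncoding RNA beside it, stood among the most abundant transcripts, with 4790, 3861 and 5257 TPM on D7 and 767, 1138 and 1583 TPM on D14, and fell by 2.04 (SE 0.39, adjusted p = 0.0168). Rian and Mirg, noncoding RNAs of the Dlk1 locus, fell by 2.82 (SE 0.52, adjusted p = 0.0142) and 2.48 (SE 0.49, adjusted p = 0.0197). Meg3, from the same locus, was 166, 45.3 and 147 TPM on D7 and 22.9, 30.8 and 12.9 TPM on D14, and its difference of -2.25 did not pass the test with all libraries (adjusted p = 0.0651).

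Plagl1, a zinc finger transcription factor, fell by 2.76 (SE 0.62, adjusted p = 0.0407) from 55.7, 13.2 and 43.5 TPM to 3.40, 4.26 and 3.94 TPM. Zim1 fell by 1.87 (adjusted p = 0.0324), whereas its neighbour Peg3, with a difference of -2.01, missed the threshold (adjusted p = 0.0799). In all, 9 of 28 imprinted genes tested fell, where 0.654% of all genes did, and none rose, with a median difference of -0.85. Cdkn1c, described above with the myogenic regulators, is among the 9. This list was put together after values had been seen, so that its count is no independent evidence of its direction. The other lists were also chosen with earlier results of these data known, so that their counts are descriptive as well. Not every imprinted gene followed: Snrpn, a splicing protein gene, was 18.9, 19.9 and 17.8 TPM on D7 and 29.9, 30.8 and 29.9 TPM on D14 (log2 0.65, adjusted p = 0.168), and Airn had a difference of 0.13 (adjusted p = 0.744). Without KO D7 replicate 2, 14 of the 28 were called, all lower, against 2.94% of all genes.

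Of the 87 genes called lower, 66 lay outside the lists, some with little spread across libraries and some with more. Exoc3l4, a protein related to an exocyst subunit, had the lowest adjusted p of all genes. It was 22.0, 27.5 and 30.9 TPM on D7 and 2.84, 3.33 and 4.77 TPM on D14, with replicate 2 in the middle of the D7 libraries, and fell by 2.59 (SE 0.27, adjusted p = 0.000132). Kcne1l, an accessory subunit of potassium channels, was 28.3, 15.6 and 23.1 TPM on D7 and 2.11, 1.88 and 3.06 TPM on D14 and fell by 2.78 (SE 0.36, adjusted p = 0.00143). The keratins Krt8 and Krt18, which pair in simple epithelia and appear in regenerating muscle, fell by 2.54 and 2.46 (SE 0.38 and 0.37, adjusted p = 0.00371 each), from at most 7.89 and 8.59 TPM on D7 to at most 0.18 and 0.43 TPM on D14. Maged2, a MAGE family protein, fell by 2.62 from 163, 70.5 and 129 TPM to 14.8, 15.9 and 23.7 TPM (adjusted p = 0.0142), and Tceal7, a small nuclear protein, fell by 3.07 from 231, 90.5 and 266 TPM to 20.8, 22.8 and 17.5 TPM (adjusted p = 0.0215). Hras, a small GTPase of growth factor signalling, fell by 0.85 (SE 0.15, adjusted p = 0.0142), with 99.1, 127 and 108 TPM on D7 and 61.3, 59.2 and 61.8 TPM on D14. Rps18-ps1 is a ribosomal pseudogene whose reads may belong to its parent gene, so that its fall by 3.13 (adjusted p = 0.0401) is uncertain.

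Next, the matrix was examined. All 31 collagen and collagen processing genes tested had lower mean log2 values on D14, with a median of -1.38. In 25 of them every D14 library was below every D7 library, where 26.9% of all genes had this. The test was passed by 4, where 0.654% of all genes were called lower. These were Col6a2, Col4a1, Col15a1 and Col4a2. Col4a1, a chain of basement membrane collagen, was 273, 207 and 256 TPM on D7 and 94.0, 116 and 154 TPM on D14. The D7 libraries lay close together, and Col4a1 fell by 1.03 (SE 0.20, adjusted p = 0.0168). Col6a2, a chain of the collagen around the fibre, was 371, 172 and 316 TPM on D7 and 75.9, 80.4 and 112 TPM on D14 and fell by 1.62 (SE 0.35, adjusted p = 0.0322).

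The fibrillar collagens had larger differences with a wider spread. Col3a1 was 2206, 822 and 1807 TPM on D7 and 377, 298 and 378 TPM on D14. Replicate 2 was the lowest D7 library by far, and the difference of -2.09 (SE 0.51) was not called (adjusted p = 0.0569). Col1a1 had a difference of -1.97 (adjusted p = 0.0899). Without replicate 2, 23 of the 31 were called lower, against 2.94% of all genes. Col3a1 (limma adjusted p = 0.0239) and Col1a1 (limma adjusted p = 0.0334) were among them.

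Other matrix genes gave 2 falls among 41, against 0.654% of all genes, with a median of -1.24. Of the 41, 24 lay wholly below D7, which is 58.5% where 26.9% of all genes did. Without replicate 2, 16 of the 41 were called lower, against 2.94% of all genes, and the median was -1.77. Mfap4, a microfibril protein, went from 223, 88.1 and 216 TPM to 34.6, 32.7 and 42.1 TPM and fell by 2.13 (SE 0.49, adjusted p = 0.0451). Eln, elastin, was 135, 60.8 and 110 TPM on D7 and 28.4, 37.6 and 27.5 TPM on D14 and fell by 1.62 (SE 0.33, adjusted p = 0.0255). Lamb1, a laminin chain of the basement membrane that was named after its values had been seen, fell by 1.47 (adjusted p = 0.0322). Postn, periostin, was 798, 90.5 and 566 TPM on D7 and 64.3, 30.5 and 31.6 TPM on D14, and its difference of -3.09 (SE 1.03) was not called (adjusted p = 0.128). Among the 22 fibro-adipogenic progenitor markers none was called, 8 lay wholly below D7, which is 36.4% where 26.9% of all genes did, 3 lay wholly above, and the median was -0.49. Gsn, gelsolin, was the most abundant of them, at 757, 944 and 748 TPM on D7 and 1016, 1176 and 1528 TPM on D14.

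Myeloid genes had lower values on D14, and none was called with all 24 libraries in the fit. All 21 macrophage and myeloid markers had negative differences, with a median of -1.38 and 18 wholly below D7, where 26.9% of all genes were. Yet 0 of 21 passed the test with all libraries or without replicate 2. In the fit of the 6 KO libraries alone, 13 of the 21 were called lower, against 4.01% of all genes. Lyz2, lysozyme, was 891, 311 and 873 TPM on D7 and 207, 273 and 279 TPM on D14 (log2 -1.31, adjusted p = 0.265). Replicate 2 of D7 lay just above the highest D14 library. The markers summed to 2221, 890 and 2058 TPM on D7 and to 496, 632 and 670 TPM on D14. The 13 recruited monocyte and inflammatory genes tested also had negative differences, with a median of -0.86 and 0 calls in these fits. None of them lay wholly below D7, where 26.9% of all genes did. Their mean log2 level in KO D7 replicate 2 was 1.69, within the D14 values of 1.53, 2.12 and 1.83. Apoe differed by -2.02 (adjusted p = 0.111), Trem2 by -2.14 (adjusted p = 0.146), Adgre1 by -1.75 (adjusted p = 0.135) and Spp1 by -0.70 (adjusted p = 0.673). Trem2 is not among the 21 markers, whose lowest difference was -2.10. The 20 lipid-associated macrophage genes had a median of -0.88 and 0 calls with all 24 libraries. Of these, 13 lay wholly below D7 (65%) and 2 wholly above (10%), against 26.9% and 6.05% of all genes. Their highest difference was 1.23.

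Resident macrophage markers had a median of -0.51 with 5 of 14 wholly below D7, which is 35.7% where 26.9% of all genes were. Cd163, a haemoglobin scavenger receptor, was 19.3, 7.57 and 17.3 TPM on D7 and 11.3, 8.23 and 9.76 TPM on D14 (adjusted p = 0.384), and Lyve1 had a difference of 0.48 (adjusted p = 0.396). The 8 genes of MHC class II had a median of -1.14. The 28 lysosomal genes had a median of -0.80, with 22 wholly below D7 (78.6%, against 26.9% of all genes). In the fit of 6 libraries 11 of the 28 were called lower, against 4.01% of all genes. The 26 interferon-stimulated genes had a median of -0.78, with 2 wholly below D7, which is 7.69% and less than the share over all genes. The 33 proliferation genes had a median of -0.99, with 23 wholly below D7 (69.7%) and 1 wholly above. None of these 33 was called with all libraries, and 2 were called lower without replicate 2, against 2.94% of all genes. The 18 complement genes had a median of -0.76, with 8 wholly below D7 (44.4%) and 3 wholly above (16.7%), against 26.9% and 6.05% of all genes. Among the 9 T, NK and B lymphocyte genes 3 had positive differences, with a median of -0.28 and none wholly on either side. Of the 11 gasdermin and pyroptosis genes tested none was called and the median was -0.58. Ninj1, which tears the membrane at the end of lytic death, was 58.1, 32.5 and 47.6 TPM on D7 and 29.1, 27.0 and 32.8 TPM on D14 (adjusted p = 0.333), and Il18 had a difference of -0.73 (adjusted p = 0.347).

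**Figure D2:**
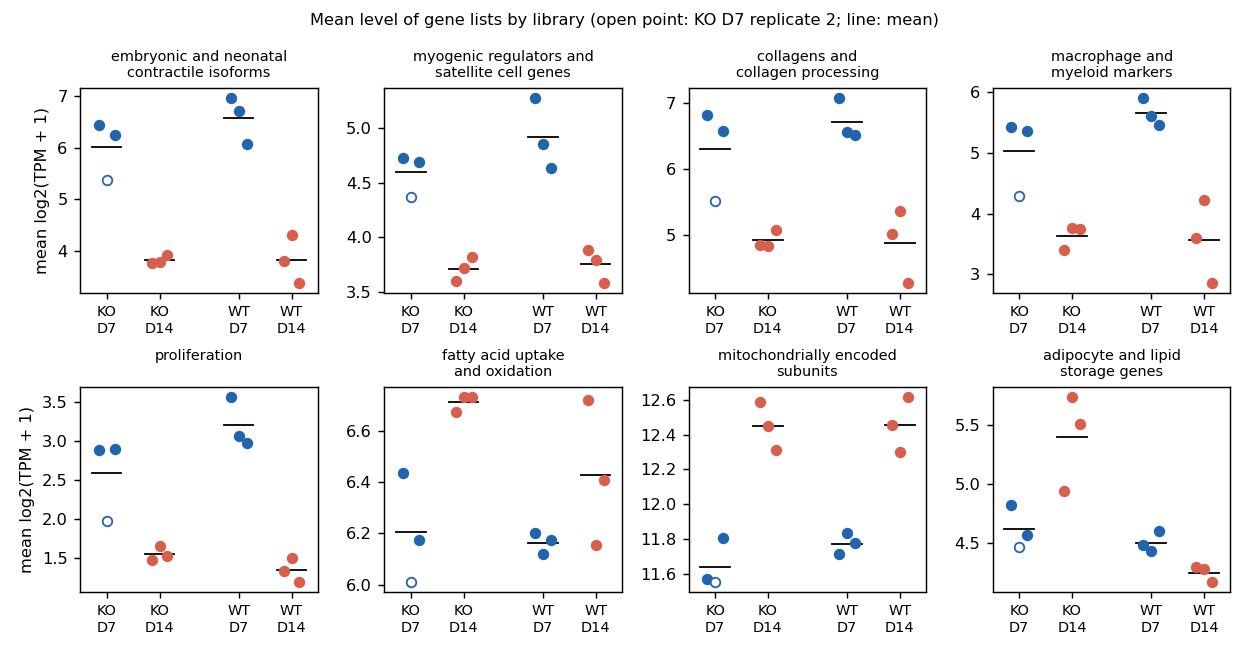
Mean log2(TPM + 1) of the tested members of 8 gene lists in each KO and WT library on D7 (blue) and D14 (red), with a line at the group mean. The open point, KO D7 replicate 2, is the lowest KO D7 library in all 8 lists, though by little for mitochondrially encoded subunits. The adipocyte list is higher on D14 in KO libraries and lower in WT libraries, where the median difference of all genes was -0.46.

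The 14 rises were fewer and smaller. Of these, 6 reached a mean of 10 TPM on D14. Adig, adipogenin, which is made in adipocytes and bears on lipid droplet size, was 0.83, 2.75 and 2.12 TPM on D7 and 9.15, 16.4 and 14.5 TPM on D14. It rose by 2.33 (SE 0.53, adjusted p = 0.0453). Slc27a1 (ENSMUSG00000031808), the fatty acid transporter FATP1 of muscle and fat, was 22.9, 20.3 and 16.3 TPM on D7 and 40.6, 63.0 and 49.7 TPM on D14 and rose by 1.31 (SE 0.27, adjusted p = 0.0232). In both genes replicate 2 lay within or near the range of the other D7 libraries.

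Prxl2a, a redox protein of the peroxiredoxin-like family, was 8.48, 7.92 and 7.66 TPM on D7 and 19.6, 20.3 and 16.0 TPM on D14 and rose by 1.12 (SE 0.21, adjusted p = 0.0168). Amy1, an amylase, rose by 1.24 (SE 0.25, adjusted p = 0.0215), from between 4.32 and 5.28 TPM to between 12.2 and 13.4 TPM, and its reads may be shared with near-identical amylase copies. Dnajc21, a co-chaperone of ribosome assembly, rose by 0.95 (SE 0.17, adjusted p = 0.0142), and Cd24a, a surface glycoprotein of many immature cells, rose by 0.91 (SE 0.18, adjusted p = 0.0215). Tmem45b, chosen after its values had been seen, rose by 2.00 (adjusted p = 0.0331) from at most 1.19 TPM on D7 to 2.61, 8.79 and 9.10 TPM on D14. All 7 of these rises kept their call without KO D7 replicate 2, with adjusted p from 0.0256 to 0.0354.

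Fatty acid uptake and oxidation genes had higher values on D14 in most members. Of 33 tested, Slc27a1 was called, which is 1 gene, but 26 had every D14 library above every D7 library, where 6.05% of all genes had this, and the median was 0.50 against -0.20 over all genes. Without KO D7 replicate 2 the median was 0.41 and 1 gene was called, and in the fit of 6 libraries 10 of the 33 were called higher, against 0.887% of all genes. Fabp3, the fatty acid binding protein of muscle, was 1019, 505 and 748 TPM on D7 and 1622, 1533 and 1543 TPM on D14 (log2 1.10, SE 0.54, adjusted p = 0.244). Acadm, the medium-chain dehydrogenase, was 134, 104 and 108 TPM on D7 and 199, 190 and 184 TPM on D14 (log2 0.73, adjusted p = 0.126). These D14 libraries were almost level, while their D7 libraries spread more. Cpt1b, which admits fatty acids to the mitochondrion, differed by 0.50 (adjusted p = 0.462), and Pdk4 overlapped between days (log2 -0.10, adjusted p = 0.93).

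The 13 mitochondrially encoded subunits all had positive differences, with a median of 0.76 and 11 wholly above D7, where 6.05% of all genes were. Mt-Co1, a subunit of cytochrome oxidase, was 26450, 22131 and 27939 TPM on D7 and 46743, 40122 and 41220 TPM on D14 (log2 0.75, adjusted p = 0.235), and mt-Nd1 missed the threshold narrowly (log2 0.95, SE 0.23, adjusted p = 0.0571). In all, mitochondrial transcripts held from 7.81% to 11.4% of TPM on D7 and from 14.4% to 17.5% on D14. Nuclear subunits of the respiratory chain were nearly level, with a median of 0.08 over 77 genes and 0 calls. The 27 tricarboxylic acid cycle genes had a median of 0.24 with 13 wholly above D7, which is 48.1% where 6.05% of all genes were. The 34 glycolysis and glycogen genes had a median of 0.00, with 8 wholly above (23.5%) and 6 wholly below D7 (17.6%), against 6.05% and 26.9% of all genes.

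**Figure D3:**
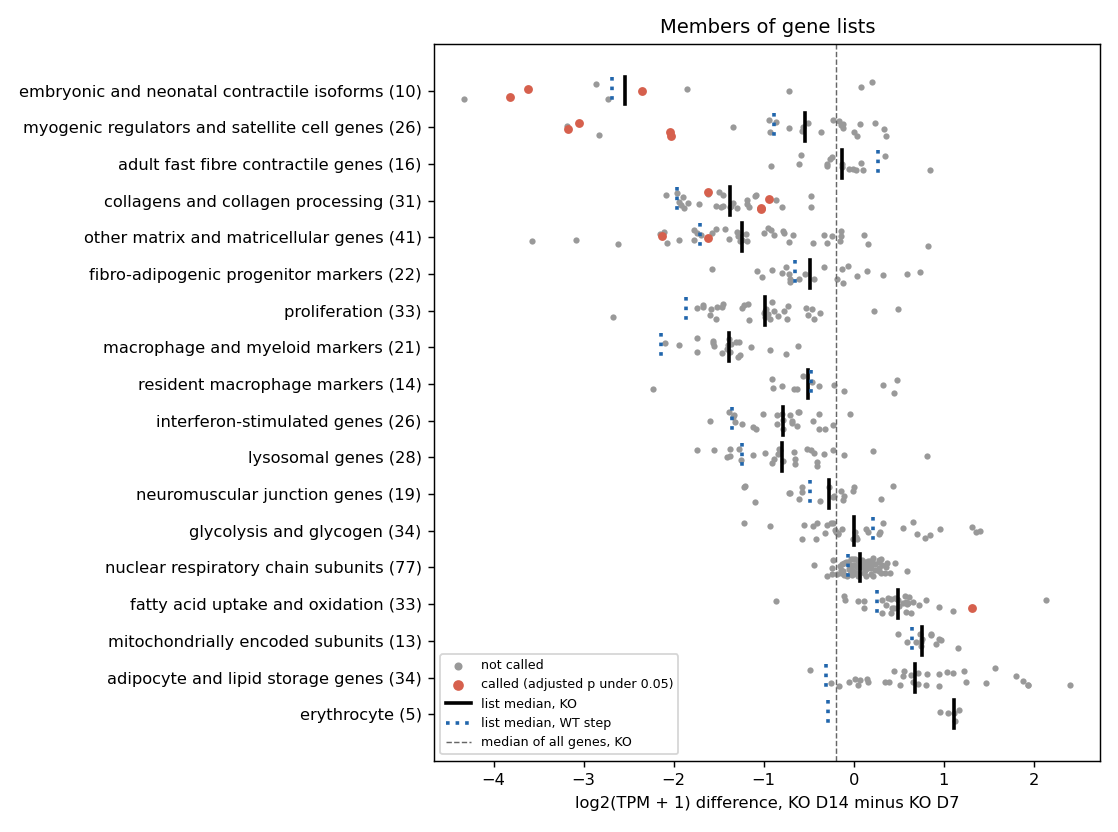
Difference of log2(TPM + 1), KO D14 minus KO D7, for each tested member of 18 gene lists (number of members in parentheses), with called genes in red, list medians as black bars and the medians of the same genes in WT as dotted blue bars. Contractile isoforms, collagens and myeloid markers lie left of the median of all genes at -0.20, and fatty acid, mitochondrially encoded, adipocyte and erythrocyte genes lie right of it.

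Adipocyte and lipid storage genes were higher on D14 in most members but none was called. Their median was 0.68, and 17 of 34 had every D14 library above every D7 library, where 6.05% of all genes had this. None had every D14 library below, where 26.9% of all genes did. Without KO D7 replicate 2 the median was 0.60 with 0 calls. In the fit of 6 libraries 6 genes were called higher, against 0.887% of all genes. Cfd, the adipocyte protease adipsin, was 195, 164 and 124 TPM on D7 and 268, 1058 and 798 TPM on D14 (log2 1.94, SE 0.77, adjusted p = 0.173). Scd1, which desaturates fatty acids, was 30.5, 23.1 and 24.8 TPM on D7 and 49.1, 171 and 128 TPM on D14 and stood just outside the threshold (log2 1.94, SE 0.46, adjusted p = 0.052). Adipoq, adiponectin, was 16.1, 12.2 and 10.9 TPM on D7 and 18.2, 72.2 and 48.9 TPM on D14 (log2 1.57, SE 0.76, adjusted p = 0.243).

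In these 3 genes the D7 libraries were close together and KO D14 replicate 1 was the lowest D14 library, only slightly above D7. Pparg, the regulator of fat cell differentiation, overlapped between days (log2 0.39, adjusted p = 0.412), as did Fabp4 (log2 0.52, adjusted p = 0.266). KO D14 replicate 1 also held less of the Schwann cell and nerve markers, whose sum was 166 TPM there against 616 and 495 TPM in the other D14 libraries and from 209 to 396 TPM on D7, and more slow fibre transcripts. Of the 8 brown adipocyte markers 3 were tested and summed to at most 9.81 TPM in any of the 6 libraries. The part of other tissue in the adipocyte values was not tested.

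Haemoglobin and other erythrocyte genes were also higher on D14, in all 5 tested, with a median of 1.12. None was called with 24 libraries in the fit, and all 5 were called higher in the fit of 6, where 0.887% of all genes were. Their sum was 1198, 1897 and 1521 TPM on D7 and 2538, 3252 and 4303 TPM on D14. Hbb-bs, an adult beta globin, differed by 1.12 (SE 0.58, adjusted p = 0.272), and Hba-a1 and Hba-a2 are near-identical copies whose reads may have been split. Blood in the sample was not tested as a source. Endothelial markers (16 tested, median -0.27), smooth muscle and pericyte markers (12, median 0.01), tendon markers (8, median -1.04) and neuromuscular junction genes (19, median -0.28) gave 0 calls. Without replicate 2, 1 tendon gene and 2 neuromuscular junction genes were called lower, against 2.94% of all genes. Of 18 acinar pancreas markers 1 was tested, and it was at most 1.86 TPM. Chrng, the fetal subunit of the acetylcholine receptor, was 2.81, 1.09 and 1.83 TPM on D7 and 0.10, 0.34 and 0.25 TPM on D14 (log2 -1.20, adjusted p = 0.398).

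To see whether the step was particular to KO muscle, the same genes were compared between WT D7 and WT D14, and the difference of the steps was tested. In WT muscle 4920 genes were called (37%), of which 4769 were lower (35.8%) and 151 higher (1.13%), with a median difference of -0.46, and 61.6% of genes lay wholly below and 5.19% wholly above D7. This balance depended on scaling, since 36.3% of 2190 WT calls were higher after median-of-ratios scaling and 44.3% of 2386 after quantile normalization, against 3.07% as deposited. Of the 87 genes that fell in KO muscle 82 also fell in WT (94.3% of the KO falls and 1.72% of the WT falls), and of the 14 that rose 9 also rose in WT (64.3% and 5.96%). All but Tmem45b had the same sign. The larger number of calls in WT does not show that the steps differed: the test of KO step minus WT step called 0 genes of 13309 by limma (lowest adjusted p 0.779), with 424 genes (3.19%) at an unadjusted p under 0.05, of which 392 were higher in KO and 32 lower. That split came with a median step difference over all genes of 0.28 in TPM as deposited, which was -0.0031 after median-of-ratios scaling and -0.01 after quantile normalization. With library quality weights, whose estimation did not converge, it called 59.

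Dlk1 fell by 5.01 in KO and by 5.59 in WT, with a step difference of 0.58 (SE 1.02, adjusted p = 0.817). The step difference was 1.34 (SE 1.11) for Mest, 1.24 (SE 0.87) for Tceal7, 1.05 (SE 1.23) for Myh8, 0.26 (SE 0.85) for Myog and 0.34 (SE 0.28) for Col4a1. With errors of this size, a step difference of 1 or more on the log2 scale could go unseen in most of these genes. Prxl2a rose in KO and was nearly level in WT (10.2 and 10.9 TPM, log2 0.09), with a step difference of 1.03 that did not pass (limma adjusted p = 0.779). Of the 6 genes with the lowest unadjusted p for the step difference, Pcnx had a difference of 1.03, Mup11 of 2.71, Scd1 of 2.76, Nudt18 of 0.77, Gm15506 of 1.13 and Gm49494 of 2.53. None passed the adjustment (limma adjusted p = 0.779 each). Mup11 belongs to a family of near-identical genes and its value is uncertain. Adipocyte and lipid storage genes had a median of 0.68 in KO and -0.31 in WT, and fatty acid oxidation genes of 0.50 and 0.26. The median of all genes was -0.20 in KO and -0.46 in WT. Of the adipocyte genes in WT, 14 of 34 lay wholly below D7 and 7 wholly above, where 61.6% and 5.19% of all genes did. Medians of opposite sign were also seen for erythrocyte genes (1.12 in KO and -0.29 in WT) and for Schwann cell and nerve markers (0.25 and -0.44).

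**Figure D4:**
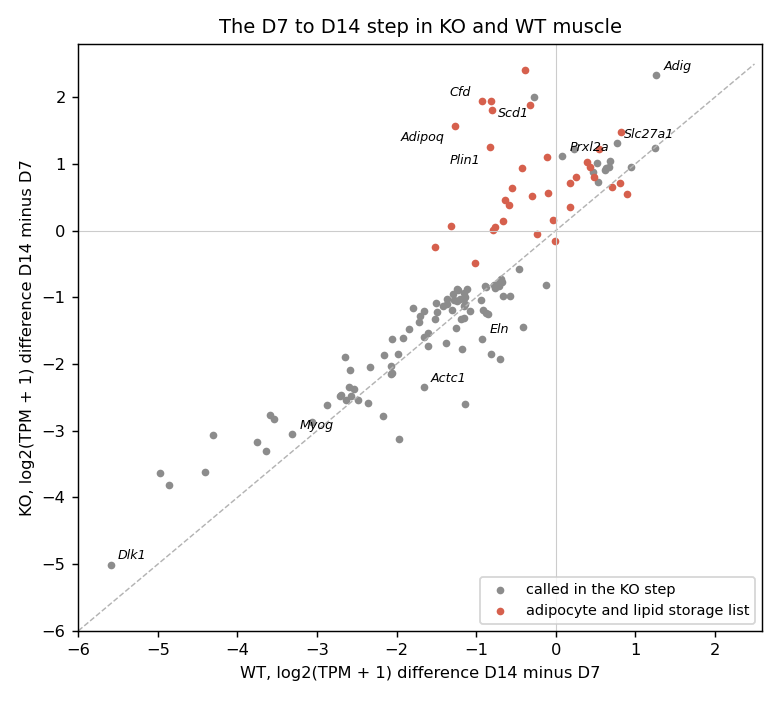
Difference of log2(TPM + 1), D14 minus D7, in WT (horizontal axis) and KO (vertical axis) for the 101 genes called in KO (grey) and for the adipocyte and lipid storage list (red), with the dashed line at equal differences. Nearly all called genes have the same sign in both, from Dlk1 at -5.59 and -5.01 upward, with Tmem45b at -0.27 and 2.00 as the exception, whereas Cfd, Scd1, Adipoq and Plin1 lie above 0 in KO and below 0 in WT.

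Set in the whole course of repair, the falling genes had different starts. Igf2 averaged 22.2, 465, 171 and 16.4 TPM in KO muscle on D1, D4, D7 and D14, so that its peak was on D4, as was that of Mymk with 2.19, 105, 14.0 and 0.64 TPM. Dlk1 peaked on D7, with 2.37, 33.1, 94.4 and 1.43 TPM, and Exoc3l4 as well, with 12.6, 10.4, 26.8 and 3.65 TPM. KO D4 replicate 2 was far below the other D4 libraries in Igf2, with 611, 43.2 and 742 TPM, and in Lyz2, with 2771, 304 and 2304 TPM. The KO means of Lyz2 were 2503, 1793, 692 and 253 TPM, and without that library the D4 mean was 2537 TPM, so that no order of D1 and D4 can be read. Adipoq averaged 8.78, 39.9, 13.1 and 46.4 TPM, with both D4 and D14 above D7. On D14, Dlk1 at 1.43 TPM lay near the 2.15 TPM of uninjured WT control muscle, and Myog at 4.90 TPM was below its 9.11 TPM. Adipoq was 23.1, 32.4 and 30.3 TPM in the controls, above every KO D7 library and above KO D14 replicate 1 at 18.2 TPM. KO D14 replicates 2 and 3, at 72.2 and 48.9 TPM, lay above the controls, and WT D14 libraries, at 2.65, 4.92 and 2.20 TPM, below. Control means of Slc27a1 (34.3 TPM) and Adig (6.14 TPM) lay between the KO D7 means (19.8 and 1.90 TPM) and KO D14 means (51.1 and 13.4 TPM). These control values come from a table quantified separately, and no test was run across the tables.

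**Figure D5:**
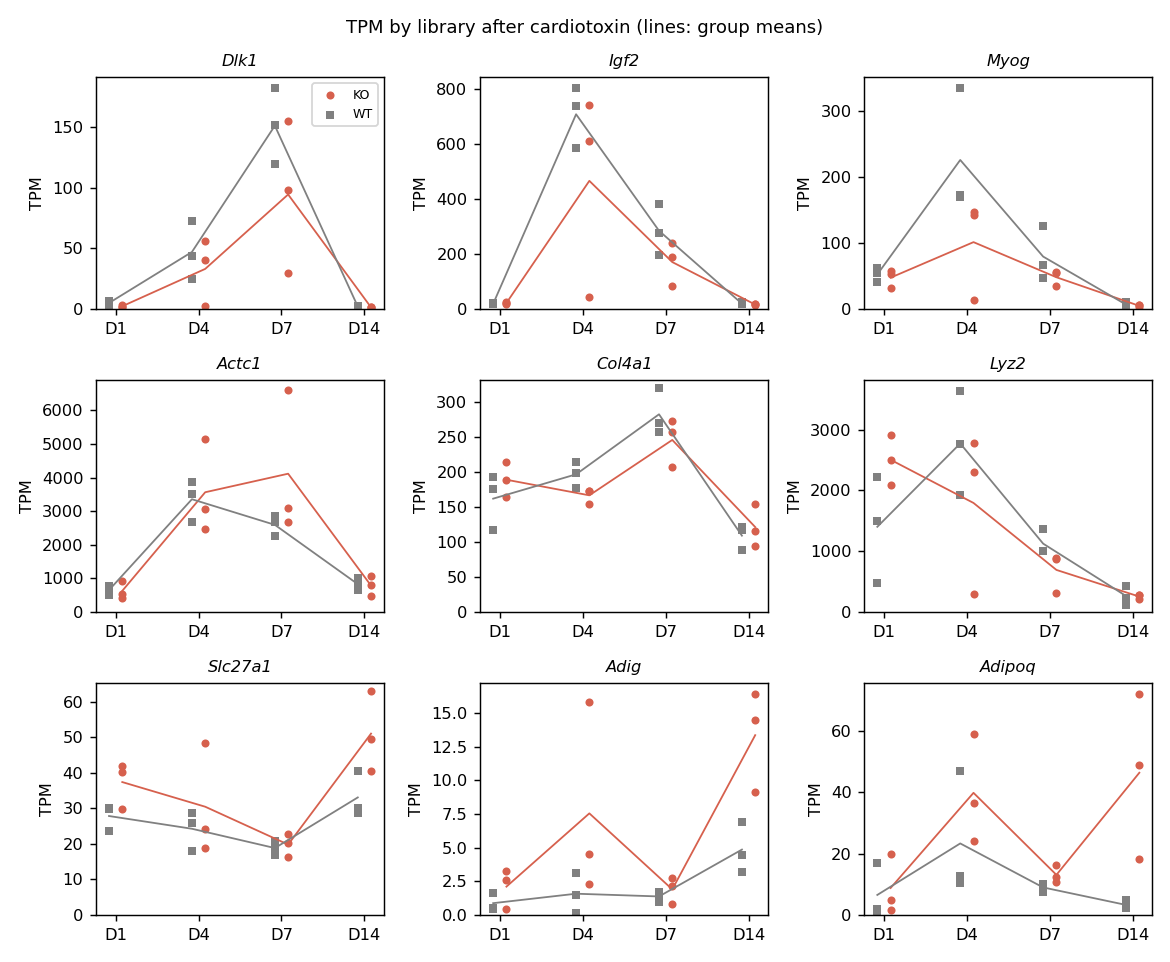
TPM of 9 genes in each library on D1, D4, D7 and D14 in KO (red circles) and WT (grey squares), with lines through the group means and days spaced evenly. Dlk1 reaches its highest KO mean of 94.4 TPM on D7 and returns to 1.43 TPM on D14, and the KO mean of Adipoq is 13.1 TPM on D7 and 46.4 TPM on D14, with a wide spread on D14.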

How the data were processed

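RNA of whole muscle was sequenced, per the labels with a SMARTER mRNA kit from both fragment ends (RIN over 7 stated). The authors deposited TPM values per gene and library. The submitters' processing notes name the build mm10, and the aligner, counting tool and strand use are not given in the sources used here. Depth is therefore unknown, paralogs and overlapping genes may share reads, and TPM values are shares of a fixed total. Deposited group means were not used.

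The analysis used log2(TPM + 1) and limma 3.58.1 (R 4.3.3): 8 group means over 24 injured libraries, which share the estimate of spread, moderation with a variance trend, and Benjamini-Hochberg adjustment over the 13309 genes with at least 1 TPM in at least 3 of the 6 KO libraries. Genes with adjusted p under 0.05 are described as called. Group and replicate came from sample titles, and replicates were described as biological, with at most 0.291% identical values in any pair. The study names 2 sequencing batches, which the labels do not mark. By its methods, the second batch held the injured WT and KO muscle of D1, D4, D7 and D14. The fit was tested on simulated data.

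Members and gene lists were chosen with earlier results of these data known. Named genes are the 12 largest rises and 12 largest falls among calls with a gene name, no overlap and a mean of at least 10 TPM in the higher group (6 rises and 12 falls met this), the called members of each list with the largest differences and its most abundant uncalled member, Gsdme, and the 6 genes with the lowest p for the step difference. All other genes named, and the imprinted list, were chosen after their values were seen. Alternatives varied pseudocount, filter, scaling, libraries in the fit, library weights, variance trend and a replicate block. Each D7 and D14 library was also left out in turn. No D1 or D4 library was left out on its own, KO D4 replicate 2 included. Lists are described by counts and medians, without set tests.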

Additional observations from a re-analysis of the deposited data

Results flagged for a closer look

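Some genes had differences of opposite sign in KO and WT between D7 and D14, with all 3 libraries of D14 above those of D7 in KO and all 3 below in WT. The difference of the log2 steps, KO minus WT, was 2.86 for Cfd, 2.84 for Adipoq, 2.08 for Plin1, 2.76 for Scd1, 2.71 for Mup11, 2.53 for Gm49494 and 0.767 for Nudt18. None passed the test of the step difference (limma adjusted p = 0.779 each). The mean of the adipocyte and lipid storage list differed by 1.02 between the steps in the same way, which was not tested. Opposite signs were not particular to this list. Erythrocyte genes had medians of 1.12 in KO and -0.29 in WT, and Schwann cell and nerve markers of 0.25 and -0.44. Over all genes the median step difference was 0.28. In Adipoq the 3 D14 libraries of KO were 18.2, 72.2 and 48.9 TPM, so that the size of the difference rests on KO D14 replicates 2 and 3.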

How the results depend on the processing

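In the main fit the KO step had 101 calls. The count was 460 with median-of-ratios scaling, 766 with quantile normalization, 301 without the 50 most abundant genes, 652 in the 3 KO D7 and 3 KO D14 libraries alone, 4331 in these 6 without KO D7 replicate 2 (chosen after seeing the data) and 7366 with library quality weights, whose estimation did not converge. The scalings moved the median of all genes from -0.20 to 0.00, 0.03 and -0.05, and the share of higher calls from 13.9% to 30.2%, 40.1% and 23.6%. Leaving out single D7 or D14 libraries gave from 12 to 419 calls. Deviations of same-numbered KO libraries from their group means correlated at -0.0018, -0.0349 and -0.064, and those of differently numbered ones at from -0.0328 to 0.0831. With 3 libraries a group, these values cannot decide whether libraries of the same number were handled together. A replicate block gave 993 calls in a fit of only the D7 and D14 libraries of both genotypes. That count is not comparable with the 101, since the libraries in the fit differed as well. The KO step minus WT step had 0 calls, also under the block and without each D7 or D14 library in turn (0 to 0). With library quality weights, however, it had 59. The WT step had 4920 calls, 2190 with median-of-ratios scaling, 2386 with quantile normalization, 2605 without the 50 most abundant genes and 8618 with quality weights. It had from 537 to 5079 when single D7 or D14 libraries were left out (537 without WT D14 replicate 3, 895 without WT D7 replicate 1). The cause of these shifts was not tested. Pseudocounts of 0.1 and 0.5, no filter, a filter of at least 5 TPM and a fit with no trend gave from 78 to 99 KO calls. Of the 38 named genes that were called, all 38 kept their direction wherever they were fitted. From 7 to 16 kept the call when a KO D7 or D14 library other than KO D7 replicate 2 was left out, and 38 without that replicate. The depth behind TPM is unknown, so that its share in missed calls cannot be given.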
